A study of Mus musculus with 17 samples.

Results

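The cholangiocyte condition holds adult mouse liver progenitor cells that were cultured and are labelled as differentiated into cholangiocytes. The cells described here are that condition, set against primary cholangiocytes, the mature cells that line the bile ducts. They were chosen by the sample titles: 3 arrays of the cholangiocyte condition (numbered 1, 2 and 3) and 2 arrays of primary cholangiocytes (numbered 3 and 4). These are 5 of the 17 arrays of the series. All groups came from mice labelled Foxl1-CRE; RosaYFP and aged 6 to 10 weeks. In such mice the Foxl1 promoter drives Cre recombinase, which turns on a yellow fluorescent protein, so cells that have expressed Foxl1 (a forkhead factor) and their descendants are marked. The remaining 12 arrays were 4 each of undifferentiated progenitors, of progenitors labelled as differentiated into hepatocytes and of primary hepatocytes. The stated design set the differentiated cells against the primary cells. The labels give no culture medium, no time in culture and no method of isolation for the primary cholangiocytes. Whether arrays of a group came from separate mice or cultures is not stated either, and p-values therefore cover no more than the spread among these arrays, which may be technical.

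Cholangiocytes form a closed tube. Epithelial cell adhesion molecule and claudins seal neighbouring cells together, keratins brace them, and channels and exchangers in their membranes add water, chloride and bicarbonate to bile. The transcription factor Sox9 and the Notch pathway set this fate in the embryonic liver, while Grhl2, Elf3 and Ehf maintain epithelial character in many ducts. Liver progenitors of the adult organ share keratins and osteopontin with bile ducts as markers, while vimentin and N-cadherin mark mesenchymal cells.

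Each level below is a log2 intensity from which the array's own 75th percentile was subtracted, and levels follow the order of the array numbers. A step of 1 is a 2-fold change of signal. Differences are the condition minus primary cholangiocytes, ± their standard error (SE) from limma with all 17 arrays fitted together. Passing means an adjusted p (Benjamini-Hochberg, over 25977 genes) under 0.05. "Higher" and "lower" refer to genes that passed, read as the condition against primary cells. The 75th percentile of intensity was 1857 ± 139 (SD, n = 3) in the condition and 2767 ± 115 (SD, n = 2) in primary cholangiocytes, while between 67.98% and 74.13% of probes per array were well above background. Arrays of the condition correlated with each other across genes at a mean r of 0.970, the 2 primary arrays at 0.947, and the condition with primary cells at 0.913. Undifferentiated progenitors correlated with the condition at a mean r of 0.965 and with primary cholangiocytes at 0.915. The 5 arrays lay on 4 of the 5 slides, and slide 4 held array 2 of the condition and array 4 of primary cholangiocytes. A difference within that slide is given beside the main results as a value with no test. The number of arrays limits the precision.

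Some genes named below were well above background on only some arrays of a group, and there their low level is less certain. In the condition this was 2 of 3 arrays for Epcam, Ltf, Ly6d, Kcnk1, Sod3, Pdx1 and H2-Ab1, and 1 of 3 for Muc1, Rsad2, Ifi44, Rbp7, S100b, Krt6a and Ccl28. In primary cells it was 1 of 2 for Axin2, Cdh16, Csf2, Cxcl3, Igf2bp1, Mmp13, S100a7a, Snai2 and Zeb1. Where no array of a group held a gene well above background, a lower bound of the fold ("at least") is given. It sets the mean level of the brighter group against the lowest signal well above background on each array of the other, or the gene's own signal where that is higher, averaged over arrays. It bounds the difference of the means, and a single array of the brighter group can differ by less, as for Dmbt1 and Foxl1.

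The labels were checked first with the markers given for the comparison, Epcam, Mmp7, Rbp4 and Aqp5. The array reads Epcam, Mmp7 and Aqp5 through 60-base probes with an open reading frame, shown here because the check of the labels rests on them. The Epcam probe (mm9, chr17:88048972-88049800, plus strand) spans an intron, the Mmp7 probe lies at chr9:7697641-7697700 (plus strand), and the Aqp5 probe shown, the second of its 2 probes, at chr15:99424655-99424714 (plus strand).
Epcam: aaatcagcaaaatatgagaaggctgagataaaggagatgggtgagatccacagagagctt
Mmp7: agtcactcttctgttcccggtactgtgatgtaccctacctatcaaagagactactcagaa
Aqp5: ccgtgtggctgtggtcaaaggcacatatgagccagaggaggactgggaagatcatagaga

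Epcam, the adhesion molecule that marks biliary epithelium, was at -6.24, -7.25 and -6.36 in the condition and 3.06 and 2.22 in primary cells. The difference was -9.26 ± 0.93 (adjusted p = 1.48e-05). Mmp7, a matrix metalloproteinase made by ducts, was at -4.92, -5.03 and -3.86 in the condition and 7.76 and 6.73 in primary cells. Mmp7 differed by -11.85 ± 1.01 (adjusted p = 3.59e-06). Aqp5, a water channel of secretory epithelia, was at -4.2, -5.02 and -4.1 in the condition and 6.85 and 5.51 in primary cells. Aqp5 differed by -10.62 ± 0.85 (adjusted p = 1.9e-06), and the second probe, printed above, gave -9.97 ± 0.69. These 3 genes were high on both primary arrays and low on every array of the condition, with no overlap. They thus do not bear out the label of the condition, whose name is used here only as the label gives it. Within slide 4 the differences were -9.48 for Epcam, -11.77 for Mmp7 and -10.53 for Aqp5. Rbp4, the plasma carrier of retinol, ran the other way: it was at 6.89, 6.55 and 6.93 in the condition and -4.8 and -5.77 in primary cells. Rbp4 differed by 12.08 ± 0.4 (adjusted p = 6.91e-10). Rbp4 was at 9.04 ± 0.33 (SD, n = 4) in primary hepatocytes, so among the primary cells of the series it was high in hepatocytes and not in cholangiocytes, against its place among these markers. The undifferentiated progenitors stood beside the condition at all 4 markers, with means of -6.47 for Epcam, -3.8 for Mmp7, -3.25 for Aqp5 and 6.05 for Rbp4.

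The other genes that define bile ducts were split between the groups. Keratin genes were present in both: Krt19 was at 6.72, 5.86 and 7.0 in the condition and 7.3 and 6.69 in primary cells, with overlapping groups and a difference of -0.46 ± 0.65 (adjusted p = 0.711). Krt7, its partner in ducts, was at 3.49, 3.36 and 3.52 in the condition and 5.5 and 5.47 in primary cells, a difference of -2.02 ± 0.43 (adjusted p = 0.00461), so it was lower in the condition while still at high signal. Spp1, which encodes osteopontin, was at 4.55, 4.04 and 3.87 in the condition and 0.33 and -0.55 in primary cells and thus higher in the condition, a difference of 4.26 ± 0.57 (adjusted p = 0.000173). Sox9 was at -0.14, 0.74 and -0.051 in the condition and -3.63 and -0.55 in primary cells. Sox9 differed by 2.27 ± 0.71 (adjusted p = 0.0381). Its adjusted p ranged from 0.00105 to 0.501 when single arrays were left out and was under 0.05 only without primary array 4. The claudin Cldn4 was at -5.65, -6.41 and -3.31 in the condition and 1.53 and 2.89 in primary cells. Cldn4 differed by -7.33 ± 1.24 (adjusted p = 0.00101), and the membrane mucin Muc1 was at -7.25, -5.49 and -7.85 in the condition and 4.04 and 1.9 in primary cells. Muc1 differed by -9.83 ± 0.74 (adjusted p = 1.15e-06). Both were lower on every array of the condition than on either primary array.

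For 6 of the 15 biliary genes reported here, no difference passed. The secretin receptor Sctr (-0.091 ± 0.49), the chloride channel Cftr (-0.56 ± 1.75), the water channel Aqp1 (-0.13 ± 1.11) and the integrin subunit Itgb6 (-0.12 ± 0.97) overlapped between the groups, as Krt19 did. Probes of Sctr disagreed, and a dimmer one was lower, at -2.60 ± 0.72 (adjusted p = 0.0204 over all probes). Prom1, which encodes the progenitor marker prominin, was at -0.2, 0.82 and -3.21 in the condition and 4.75 and 2.66 in primary cells, without overlap, but its difference of -4.57 ± 2.01 (adjusted p = 0.136) did not pass. Cftr spread widely within the condition, at -0.34, -4.86 and -5.79 in the condition and -2.59 and -3.62 in primary cells. The SE of these genes, between 0.49 for Sctr and 2.01 for Prom1, leaves room for differences that 5 arrays do not show.

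**Figure D1:**
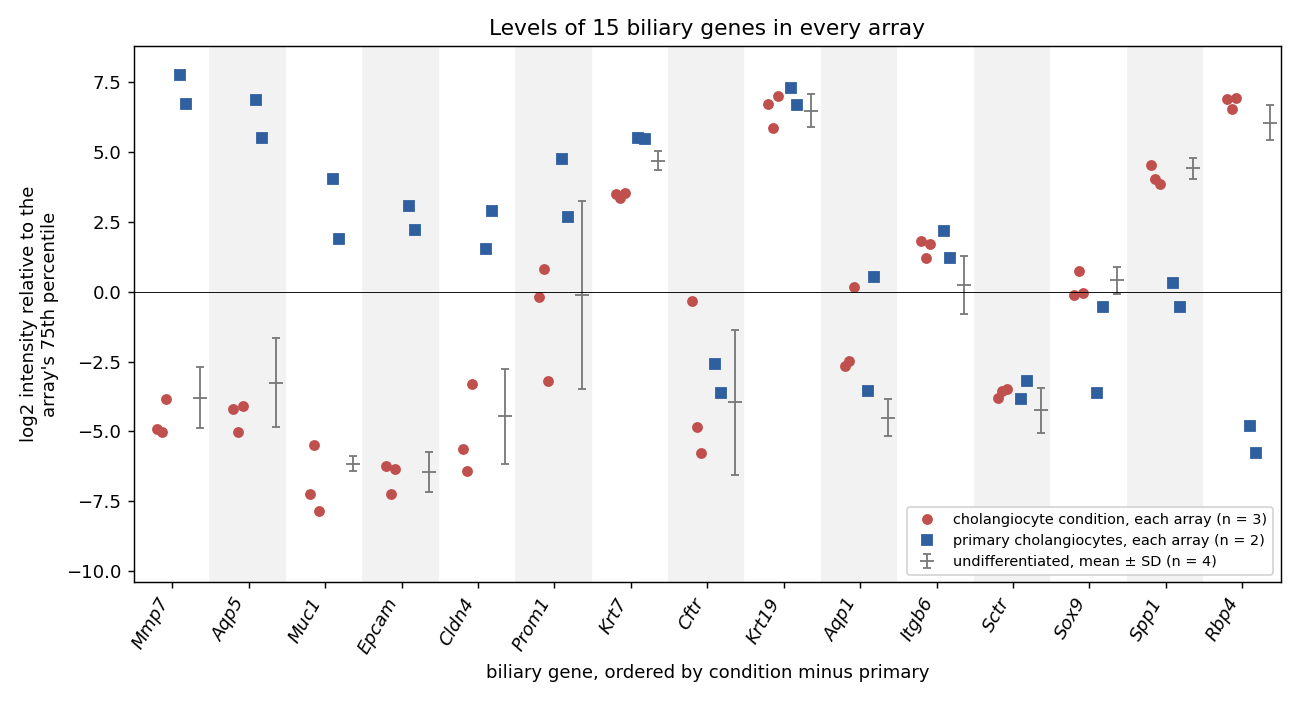
Log2 intensity less the array's 75th percentile (vertical axis) of 15 biliary genes (horizontal axis), with a point for each array of the cholangiocyte condition (n = 3) and of primary cholangiocytes (n = 2), and the mean ± SD of undifferentiated progenitors (n = 4). Mmp7, Aqp5, Muc1, Epcam and Cldn4 stand high in primary cells alone, Krt19, Itgb6 and Sctr overlap, and Spp1 and Rbp4 stand higher in the condition, where the undifferentiated cells also lie.

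Across all genes, 3111 (12%) were higher and 1978 (7.61%) lower in the condition, with a median difference of 0.17. The counts within gene lists below are to be read against these 2 shares. At least 2-fold differences were found for 2017 of the higher and 1683 of the lower genes, and at least 8-fold differences for 517 and 740. For 98.6% of the higher and 98.5% of the lower genes, the undifferentiated mean lay on the same side of the primary mean as the condition. Both comparisons share that primary mean. Higher or lower below therefore does not mean particular to the condition. Counted whether or not they passed, 247 genes exceeded background well on all 3 condition arrays and on neither primary array, and 130 of these were so on all 4 undifferentiated arrays too. In the other direction 361 genes were well above background on both primary arrays and on none of the condition, and 211 of these were not so on any undifferentiated array. With normexp background correction, which raises the median difference to 0.459, 5494 genes were higher and 1809 lower, and in a fit to the 5 arrays alone 473 were higher and 597 lower. In that smaller fit, 73 of the 200 genes named here that passed did not pass (Cybb is left out of all counts of genes named). It leaves few degrees of freedom and takes the spread from these 2 groups alone, and which of these mattered was not tested. The main fit uses 1 spread per gene for all groups, although the primary arrays differed more from each other than condition arrays did. Where primary arrays lay far apart, as for Lgals2 (SD 3.82, n = 2, beside an SE of 1.27), the SE and p may be too small. With slide as a block, 4015 genes passed, against 5089 in the main fit. Of the 200, 13 did not pass: Ccl17, Cdh1, Cdh16, Cldn12, Dmbt1, Elf3, Ifit2, Isg15, Krt6a, Muc3, Pdx1, Slc10a2 and Sox9. These 200 were picked partly for large differences and for calls that held without single arrays, which favours few losses among them. Of the genes named with several probes, 7 had probes with unlike calls, none of them opposite. These were Sctr and Zeb2, whose probes are described with them, and Loxl2, Ncam1, Notch2, Pfkp and Pttg1, each with 1 probe that did not pass beside the one reported. The authors' deposited table of comparisons, at a false discovery rate under 5 percent, had 1055 higher and 1092 lower among 25801 of these genes.

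**Figure D2:**
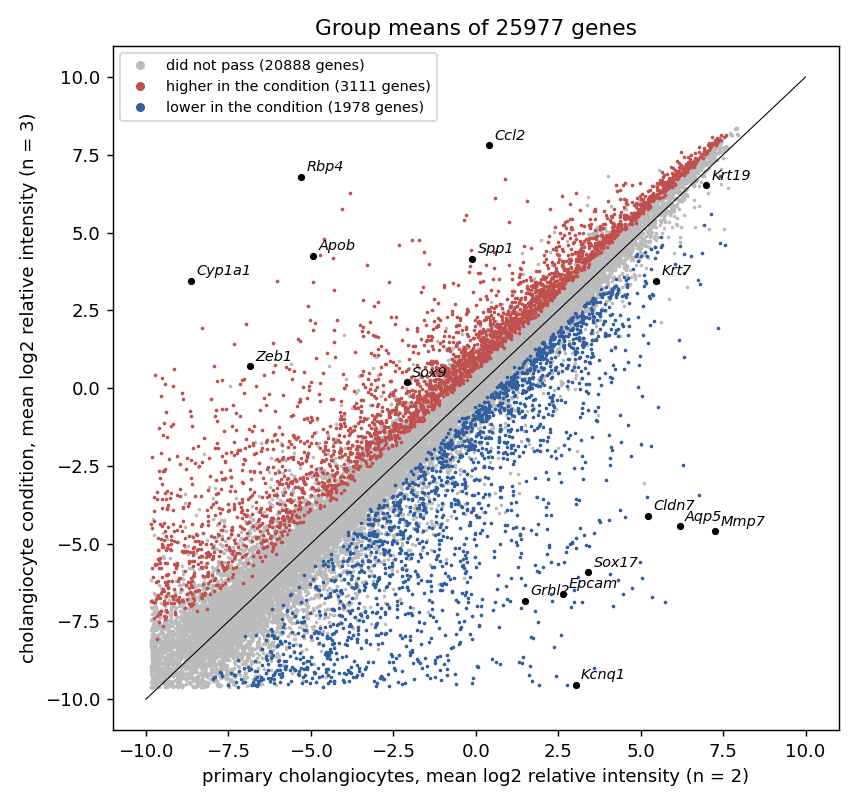
Mean log2 relative intensity of 25977 genes in primary cholangiocytes (horizontal axis, n = 2) and in the cholangiocyte condition (vertical axis, n = 3), with the line of equality. The 3111 genes higher in the condition lie above the line and the 1978 lower genes below it, and genes such as Mmp7, Aqp5, Epcam and Kcnq1 lie far below while Rbp4, Ccl2, Apob and Cyp1a1 lie far above.

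Among genes well above background on every one of the 5 arrays, the largest differences toward the condition after Rbp4 were those of Prl2c5, Lgals2 and Ccl7. The prolactin family gene Prl2c5, whose probe may also read near-identical members of its family, was at 4.77, 6.99 and 7.01 in the condition and -1.46 and -6.19 in primary cells, a difference of 10.08 ± 2.09 (adjusted p = 0.00408), which no longer passed without primary array 4 (adjusted p = 0.0529). The galectin Lgals2 was at 6.03, 5.03 and 6.17 in the condition and -1.34 and -6.75 in primary cells. Lgals2 differed by 9.79 ± 1.27 (adjusted p = 0.000128). Ccl7, a monocyte chemokine, was at 4.82, 5.46 and 4.08 in the condition and -5.97 and -3.25 in primary cells. Ccl7 differed by 9.39 ± 0.63 (adjusted p = 5.28e-07). Plasma protein genes of the liver stood beside these: Apob, the protein of low density lipoprotein, at 3.93, 4.49 and 4.35 in the condition and -4.39 and -5.45 in primary cells. Apob differed by 9.18 ± 0.43 (adjusted p = 1.47e-08). Gc, the vitamin D binding protein, showed 9.0 ± 0.78, the protease Habp2 8.49 ± 0.99 and hemopexin (Hpx) 7.74 ± 1.56, and each stood higher on all 3 condition arrays than on either primary array. The receptor subunit Il5ra (7.6 ± 1.71) and the transcript AW112010 (7.44 ± 0.96) were the other genes of this rank outside the groups described below.

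The dioxin-responsive cytochromes P450 stood out at the top of the condition. Cyp1a1 was at 3.15, 3.25 and 3.96 in the condition and -7.75 and -9.51 in primary cells and was not well above background in primary cells, so the condition was at least 2032-fold higher (adjusted p = 0.000796). Its mean in undifferentiated cells was -3.74, with a larger spread than in either group (SD 3.79). Cyp1b1 was at 3.81, 2.1 and 4.3 in the condition and -2.5 and -7.37 in primary cells. Cyp1b1 differed by 8.34 ± 1.15 (adjusted p = 0.00021). Both are known targets of the aryl hydrocarbon receptor. Other genes of that receptor, looked up after these values were seen, did not all follow: the receptor gene Ahr (1.6 ± 0.34) and the target Tiparp (1.27 ± 0.34) were higher, while the repressor Ahrr (0.21 ± 1.49) and Nqo1 (1.09 ± 1.0) did not pass. Ahr had an adjusted p of 0.0635 without primary array 4, and Tiparp of 0.0589 without condition array 3 and 0.262 without primary array 3.

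Genes above background in the condition and on neither primary array included Lect2, a hepatocyte chemotactic factor (at least 636-fold), the transcription factors Twist2 (at least 284-fold) and Foxf2 (at least 201-fold), the bile canalicular exporter Abcc2 (at least 249.7-fold), the actin regulator Wipf1 (at least 193-fold) and the Wnt amplifier Rspo3 (at least 166-fold). Foxf2 was at 0.097, -0.17 and 0.42 in the condition and -9.17 and -9.7 in primary cells and Wipf1 at 0.06, 0.11 and -0.0089 in the condition and -9.12 and -9.22 in primary cells, so these genes were alike on all 3 condition arrays. The unannotated transcript Gm10768 (at least 231-fold) completed the group of 8 named by size, with Cyp1a1.

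Toward primary cholangiocytes, the genes named by size besides Mmp7 and Aqp5 included Chga, Degs2 and Cers3. Chga, the chromogranin of secretory granules, was at -6.38, -6.37 and -5.59 in the condition and 5.5 and 4.58 in primary cells. Chga differed by -11.15 ± 0.6 (adjusted p = 5.18e-08). The desaturase Degs2, which makes phytoceramide, was at -6.23, -6.8 and -6.79 in the condition and 4.52 and 4.43 in primary cells. Degs2 differed by -11.08 ± 1.21 (adjusted p = 2.91e-05). Cers3, a ceramide synthase of epidermal barriers, was at -4.7, -3.13 and -4.65 in the condition and 5.56 and 3.49 in primary cells, a difference of -8.68 ± 0.99 (adjusted p = 4.42e-05), so both enzymes of sphingolipid synthesis had this pattern. The collectin Sftpd showed -10.58 ± 0.72, the ubiquitin ligase Trim15 -10.12 ± 1.07, Mal, a protein of apical sorting, -8.76 ± 1.42 and the channel-like protein Tmc4 -8.67 ± 0.32. Each of these was far higher on both primary arrays than on any condition array. Sox17, a transcription factor of the developing gallbladder and extrahepatic bile duct, was at -5.67, -5.53 and -6.58 in the condition and 3.47 and 3.34 in primary cells. Sox17 differed by -9.33 ± 1.0 (adjusted p = 2.64e-05). Pdx1, expressed in the extrahepatic ducts and pancreas and looked up after these values were seen, was at -5.35, -6.58 and -9.39 in the condition and -1.5 and -3.28 in primary cells, a difference of -4.71 ± 1.38 (adjusted p = 0.0276) that no longer passed without condition array 3 (adjusted p = 0.0922) or primary array 3 (0.184).

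Genes on in both primary arrays and not well above background in the condition included the potassium channel Kcnq1 (at least 1279-fold), the kinase Tnk1 (at least 845-fold), the secreted scavenger protein Dmbt1 (at least 746-fold), the growth factor binding protein Igfbpl1 (at least 595-fold), the synaptic adhesion protein Lrfn4 (at least 516-fold), Tmem139 (at least 501-fold), Ap1m2, the epithelial subunit of the AP1 sorting adaptor (at least 487-fold), and the unannotated transcript Gm4610 (at least 1899-fold). Tnk1 was at -9.52, -9.12 and -9.14 in the condition and 2.88 and 1.98 in primary cells and Ap1m2 at -8.77, -9.4 and -8.61 in the condition and 1.68 and 1.59 in primary cells. Dmbt1 differed between the primary arrays themselves, at -6.95, -9.03 and -9.04 in the condition and 7.5 and -2.77 in primary cells. Its bound uses the mean of both and rests mainly on primary array 3. Its adjusted p was 0.217 without primary array 3.

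Of 44 biliary identity genes, 9 were higher and 16 lower (all genes 12% and 7.61%), with a median difference of -0.73 (-0.96 within slide 4, against 0.17 and 0.11 over all genes). This list holds the core genes above. Its lower members were led, after Mmp7 and Aqp5, by the claudin Cldn3, at -6.16, -5.13 and -7.24 in the condition and 4.03 and 4.62 in primary cells, and by Muc1. Primary hepatocytes also held Cldn3, at a mean of 4.45. The claudin Cldn7 was lower too, at -4.07, -4.24 and -4.01 in the condition and 5.18 and 5.24 in primary cells. Krt23 showed -7.87 ± 1.64, the immune checkpoint ligand Vtcn1 was at least 66-fold lower, and the membrane protease St14 (-4.4 ± 0.56) was lower as well. The epithelial transcription factors Ehf (-5.7 ± 1.39) and Elf3 (-3.02 ± 0.94) were lower, but without primary array 3 their adjusted p was 0.0553 and 0.5. Elf3 also failed without condition array 2 (0.0864) or 3 (0.095). Its higher members beside Rbp4, Spp1 and Sox9 included Pkhd1, which encodes fibrocystin of the primary cilium (3.32 ± 0.55), the RNA-binding protein Bicc1 (2.08 ± 0.25) and the adhesion molecule Ncam1, a marker of reactive ductules (3.21 ± 0.61). Pkhd1 was at 1.1, -0.054 and -0.64 in the condition and -3.33 and -3.05 in primary cells and Bicc1 at 6.55, 6.55 and 6.7 in the condition and 4.25 and 4.8 in primary cells, so both stood higher on every condition array. Fibrocystin and Bicc1 also belong to 38 genes of the cilium and of cystic disease, of which 3 were higher and none lower (1 to 2 lower without condition array 3 or either primary array), at a median of 0.21 (0.0014 within slide 4).

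**Figure D3:**
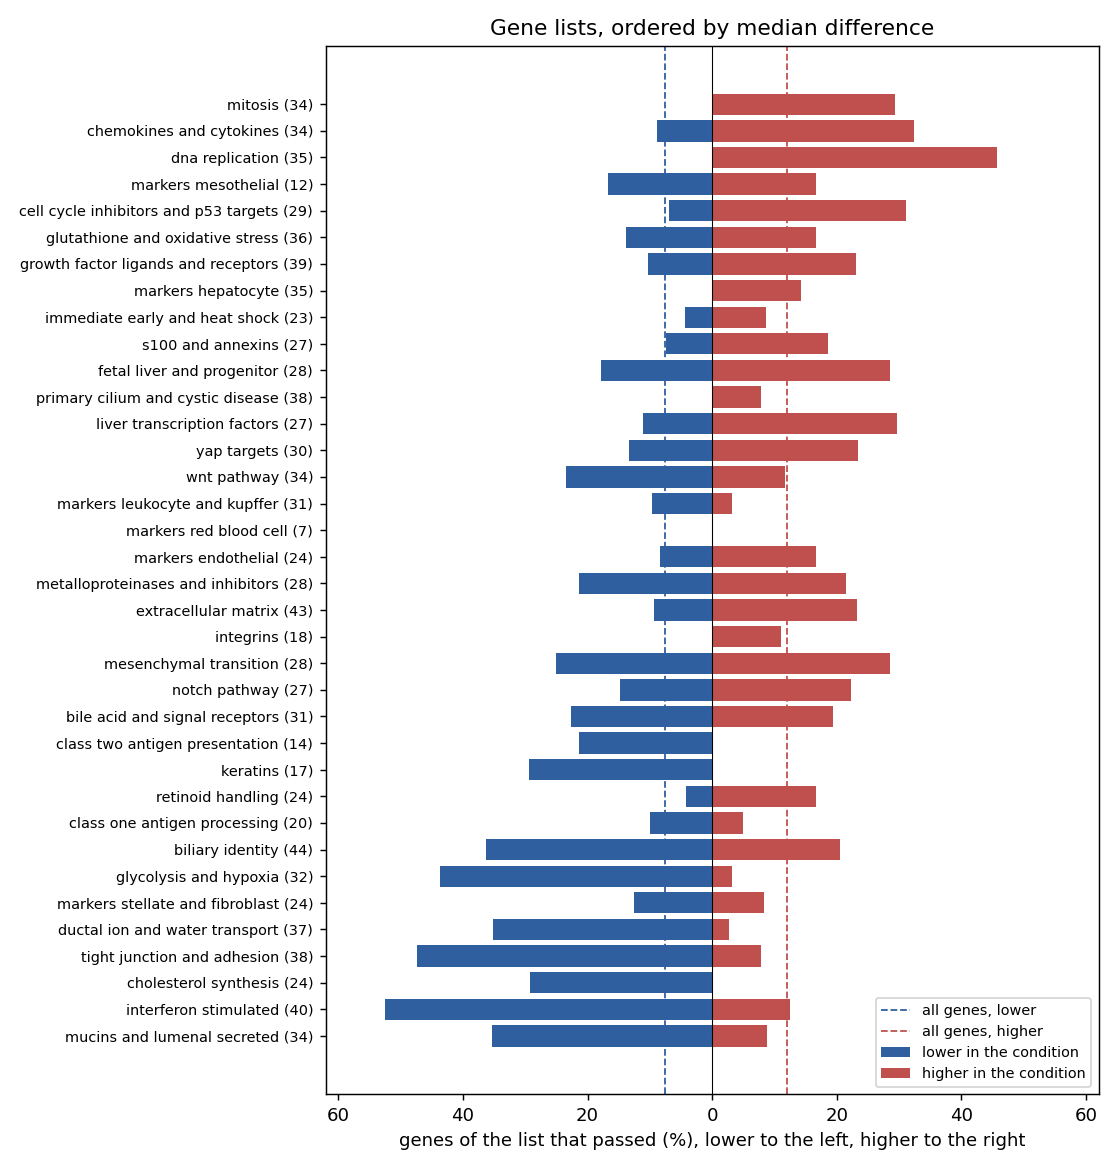
Percent of the tested genes of each of 36 lists (number in brackets) that were lower (left) or higher (right) in the cholangiocyte condition, ordered by the median difference, with dashed lines at the 7.61% and 12% of all genes. Interferon, junction, glycolysis and biliary identity lists reach farthest to the left, and DNA replication, chemokine and cell cycle lists farthest to the right.

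Of 38 tight junction and adhesion genes, 18 were lower and 3 higher, with a median of -1.08 (-0.9 within slide 4). Claudins, which seal the space between cells, led them: besides Cldn4, Cldn3 differed by -10.5 ± 0.96 (adjusted p = 6.79e-06) and Cldn7 by -9.32 ± 0.3 (adjusted p = 6.91e-10). The tight junction proteins Marveld3 (-4.88 ± 1.16) and Marveld2 (-2.42 ± 0.51), the desmosomal cadherin Dsc2 (-4.75 ± 1.04), the scaffold Tjp3 (-4.36 ± 0.91), the polarity proteins Crb3 (-2.58 ± 0.32) and Pard6b (-2.33 ± 0.41), occludin (Ocln, -3.23 ± 0.91) and the envelope protein Evpl (-3.66 ± 0.53) were lower. Crb3 was at -1.79, -2.06 and -1.35 in the condition and 0.81 and 0.88 in primary cells. E-cadherin itself (Cdh1) differed little, at 3.63, 3.11 and 3.65 in the condition and 4.53 and 4.61 in primary cells, a difference of -1.11 ± 0.34 (adjusted p = 0.0335), which ranged in adjusted p from 0.0445 to 0.121 as single arrays were left out. Tjp3 had an adjusted p of 0.0558 without primary array 3, and Ocln of 0.0737, 0.0624 and 0.147 without condition array 1, condition array 2 or primary array 3. The higher members were other cadherins and a claudin: N-cadherin (Cdh2) at 4.25, 4.04 and 3.71 in the condition and -3.76 and 0.94 in primary cells, a difference of 5.41 ± 0.88 (adjusted p = 0.000796), Cdh16 (4.64 ± 1.18) and Cldn10 (at least 2.5-fold). Cdh16 no longer passed without condition array 2 (adjusted p = 0.0528) or primary array 3 (0.0788).

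Of 28 genes of mesenchymal transition, 8 were higher and 7 lower, with a median of -0.18, since the list holds genes of both states. Of the Zeb, Snai and Twist genes, whose products are known to repress epithelial genes, Zeb1, Snai2 and Twist2 were higher. Zeb1 was at 0.75, 0.76 and 0.62 in the condition and -7.32 and -6.35 in primary cells. Zeb1 differed by 7.55 ± 0.32 (adjusted p = 4.47e-09). Zeb2 had probes that disagreed. The one that stood for the gene, at -1.86, -0.76 and -1.0 in the condition and -8.62 and -9.87 in primary cells, passed as higher but was not well above background in primary cells, so no size is given, and the other, which was, differed by 2.67 ± 1.26 and did not pass (adjusted p = 0.163 over all probes). Snai2 showed 3.96 ± 0.77 and Twist2 was described above. Snai1 (1.27 ± 0.65) did not pass. Twist1 ran the other way at -2.83 ± 1.56 and did not pass either, but without primary array 3 it was lower (adjusted p = 0.0367). Vimentin (Vim), the mesenchymal intermediate filament, was at 5.68, 6.37 and 6.28 in the condition and -2.01 and 3.17 in primary cells, a difference of 5.53 ± 0.97 (adjusted p = 0.00137), so the primary arrays were far apart, and within slide 4 the difference was 3.19. The receptor kinase Axl was also apart on the primary arrays, at 4.8, 4.9 and 4.55 in the condition and -4.3 and 0.85 in primary cells, a difference of 6.48 ± 1.05 (adjusted p = 0.000767) and of 4.05 within slide 4. The members known to maintain epithelia were lower. Grhl2 was at -6.8, -6.79 and -6.89 in the condition and 1.71 and 1.27 in primary cells. Grhl2 differed by -8.32 ± 0.54 (adjusted p = 3.98e-07). Esrp1, a splicing factor that keeps epithelial isoforms, was at -3.54, -3.29 and -3.91 in the condition and 1.92 and 2.13 in primary cells. Esrp1 differed by -5.6 ± 0.46 (adjusted p = 2.4e-06). The count of lower members was 4 without primary array 3, 4 without primary array 4 and 4 with slide as a block. Some keratins were exceptions on the epithelial side: Krt8, at 6.9, 6.66 and 6.94 in the condition and 6.66 and 7.04 in primary cells, and Krt18, at 8.05, 8.1 and 8.27 in the condition and 7.81 and 8.1 in primary cells, overlapped between the groups, as Krt19 did. Other keratins were lower, as given below.

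**Figure D4:**
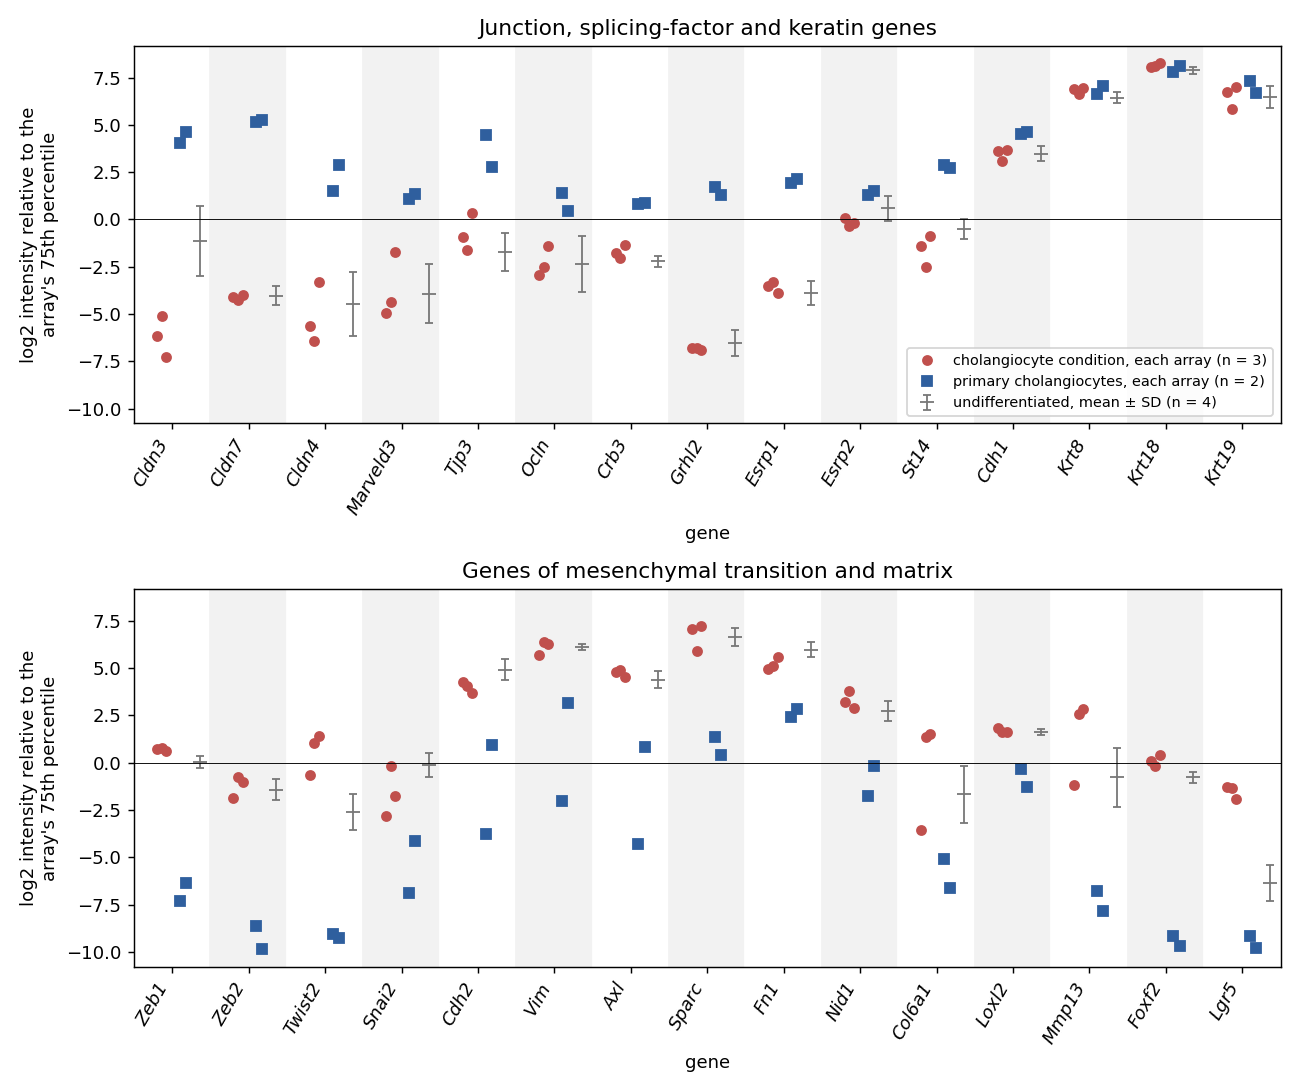
Log2 relative intensity (vertical axis) of junction, splicing-factor and keratin genes (upper panel) and of mesenchymal transition and matrix genes (lower panel), with a point for each array of the cholangiocyte condition (n = 3) and of primary cholangiocytes (n = 2), and the mean ± SD of undifferentiated cells (n = 4). The claudins, Grhl2 and Esrp1 are high in primary cells alone, the keratins Krt8, Krt18 and Krt19 overlap, and Zeb1, Twist2, Foxf2 and Lgr5 are high in the condition, with undifferentiated cells near the condition for most of the genes shown but not for Lgr5.

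Zeb and Snai proteins bind E-boxes of the sequence CACCTG, so the promoters of the junction genes were read. RefSeq promoters (GRCm38.p6, 250 bases before to 50 after a start) were found for 14825 of the genes tested, and CACCTG was searched on both strands. It was present for 22.2% of these genes, for 32.5% of 1351 lower genes and for 16.9% of 1854 higher genes that had a promoter. It was present for 8 of the 9 lower junction genes with a promoter in the table, which are Cldn3, Cldn4, Cldn7, Ocln, Tjp3, Marveld2, Crb3 and Pard6b, with Cldn12 as the exception, and for 4 of 12 junction genes that did not pass. Among biliary identity genes it was present for 9 of 12 lower genes but also for 8 of 9 that did not pass, so there it did not separate them. A match is a description of the letters and not of binding, which was not measured. Parts of 4 of these promoters upstream of the start are shown with the E-box in capitals in either orientation, since these genes differed without overlap: Cldn4 (chr5:134946935-134946993, minus strand), Cldn7 (chr11:69965279-69965374, plus strand), Crb3 (chr17:57062038-57062133, plus strand) and Epcam (chr17:87635747-87635842, plus strand).
Cldn4: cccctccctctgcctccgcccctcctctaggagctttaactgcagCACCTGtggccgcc
Cldn7: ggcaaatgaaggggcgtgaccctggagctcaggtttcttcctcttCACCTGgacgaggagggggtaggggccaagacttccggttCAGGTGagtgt
Crb3: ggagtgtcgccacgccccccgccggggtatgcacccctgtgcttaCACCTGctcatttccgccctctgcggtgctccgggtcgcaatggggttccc
Epcam: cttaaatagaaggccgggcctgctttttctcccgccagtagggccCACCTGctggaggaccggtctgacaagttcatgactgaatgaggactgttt

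Of 37 genes for the transport of ions and water in ducts, 13 were lower and 1 higher, with a median of -0.97 (-1.24 within slide 4). Beside Aqp5, the potassium channel Kcnq1 and its partner subunit Kcne3 were both lower: Kcnq1 was at -9.52, -9.46 and -9.61 in the condition and 3.59 and 2.46 in primary cells and Kcne3 at -5.12, -5.5 and -4.5 in the condition and 3.25 and 1.23 in primary cells. Scnn1a, the alpha subunit of the epithelial sodium channel, was at -4.68, -4.45 and -4.86 in the condition and 3.69 and 3.47 in primary cells. Scnn1a differed by -8.24 ± 0.43 (adjusted p = 4.28e-08). The potassium channel Kcnk1 (-8.39 ± 1.36), the chloride channel Clcn2 (-3.61 ± 0.45), the sodium pump subunit Atp1b1 (-3.79 ± 0.66) and the bicarbonate importer Slc4a4 (-1.87 ± 0.27) were lower too. Carbonic anhydrases, which make bicarbonate, were lower: Car9, at -2.71, -6.37 and -3.61 in the condition and 5.2 and 2.27 in primary cells, and Car2, at 0.34, 1.95 and -0.065 in the condition and 5.67 and 2.66 in primary cells, which had an adjusted p of 0.0878 without primary array 3. The anion exchanger Slc26a6 (1.4 ± 0.31) was the single higher member (2 were higher without primary array 3). Cftr, Sctr and Aqp1, which stand for secretin-driven secretion, did not pass, as given above.

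Receptors and bile acid carriers were mixed, with 6 of 31 higher and 7 lower and a median of -0.39 (-0.046 within slide 4). The vitamin D receptor Vdr was at -5.67, -4.18 and -4.64 in the condition and -0.56 and -0.0088 in primary cells. Vdr differed by -4.55 ± 0.76 (adjusted p = 0.000946), and the adenylyl cyclase Adcy8 was at least 54-fold lower. The nucleotide receptor P2ry2 (-1.83 ± 0.29) and the exporter Abcb1a (-2.24 ± 0.48) were lower. The bile acid receptor Nr1h4, at 1.94, 2.01 and 0.72 in the condition and -0.22 and -4.25 in primary cells, was higher, but without primary array 4 its adjusted p was 0.0741. The exporters Abcg2 (2.82 ± 0.37) and Abcc4 (2.02 ± 0.44) and the sphingosine and bile acid receptor S1pr2 (1.85 ± 0.31) were higher. The ileal and ductal bile acid importer Slc10a2 (2.47 ± 0.66) was higher in the full set, and its adjusted p ranged from 0.00925 to 0.211 as single arrays were left out.

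Of 34 genes of mucins and secreted defence proteins, 12 were lower and 3 higher, with a median of -2.14. The primary arrays were far apart for this list: its mean level was -0.68 on primary array 3 and -3.16 on primary array 4, against -4.38, -3.83 and -4.33 in the condition. Within slide 4, which holds primary array 4, the median difference was -0.25, and without primary array 3 the number of lower genes was 4, and with slide as a block it was 7. Lactoferrin (Ltf) was at -6.13, -6.42 and -7.64 in the condition and 7.35 and 3.34 in primary cells. Ltf differed by -12.07 ± 1.13 (adjusted p = 7.67e-06). Slpi, a protease inhibitor of mucosae, was at -0.32, 1.08 and -0.67 in the condition and 3.85 and 6.01 in primary cells. Slpi differed by -4.9 ± 0.79 (adjusted p = 0.000711), and was the member shown here with the higher value on primary array 4. Muc3 was at -8.35, -8.95 and -9.25 in the condition and 4.36 and -6.82 in primary cells and the trefoil factor Tff1 at -6.29, -1.43 and 0.11 in the condition and 5.55 and -5.11 in primary cells, so their high values were those of primary array 3 alone. Tff1 did not pass (-2.76 ± 2.51), and Muc3 had an adjusted p of 0.508 without that array and above 0.05 without any of the 3 condition arrays too. The 3 higher members, Rbp4, Spp1 and ceruloplasmin (Cp, 1.86 ± 0.44), are secreted proteins of liver cells, and Cp had an adjusted p of 0.117 without primary array 3.

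The 2 primary arrays differed from each other more than arrays of the condition did. Of 19178 genes well above background on all 5 arrays, 6.94% differed by at least 2 log2 units between primary arrays 3 and 4, against 2.16%, 3.34% and 2.27% for the 3 pairs of condition arrays. Ly6d, a surface protein of stratified epithelia, was at -6.51, -7.96 and -6.53 in the condition and 6.5 and 1.84 in primary cells, and the receptor kinase Kit was at -8.84, -9.51 and -8.29 in the condition and 1.99 and -0.53 in primary cells (at least 260.2-fold lower in the condition), so both were lower in the condition than on either array. The nucleotidase Nt5e, at -5.11, -4.73 and -5.96 in the condition and 1.01 and 4.44 in primary cells, and podoplanin (Pdpn), at -8.23, -8.59 and -9.58 in the condition and -0.32 and 2.94 in primary cells, were the reverse in order of the primary arrays and also lower in the condition. The 2 primary arrays lay on different slides, so slide and sample cannot be told apart here.

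Of 17 keratin genes, 5 were lower and none higher (3 lower without condition array 1 or primary array 4, and 1 higher without primary array 3). Beside Krt7 and Krt23, Krt17 (-3.04 ± 0.82) and the hyperproliferation keratin Krt6a (-7.11 ± 1.86) were lower, but Krt17 did not pass without condition array 1 (0.0626) or primary array 3 (0.111), and Krt6a without condition array 3 (0.0548) or primary array 4 (0.0999). Of 27 S100 and annexin genes, 5 were higher and 2 lower. S100a4, known from mesenchymal cells, was at 2.21, 2.07 and 1.92 in the condition and -2.62 and -2.3 in primary cells. S100a4 differed by 4.53 ± 0.51 (adjusted p = 3.7e-05). S100a7a (6.89 ± 1.02) and S100a3 (2.71 ± 0.42) were higher, and the epithelial S100a14, at -4.84, -4.78 and -4.79 in the condition and 3.27 and 2.82 in primary cells, and S100b (-6.59 ± 1.32) were lower. The count of higher members was 8 without primary array 3 and 3 without primary array 4.

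Genes of DNA replication and mitosis were higher in the condition, or did not pass, and none was lower. Of 35 replication genes, 16 were higher, with a median of 1.1 (1.08 within slide 4), and 29 did not overlap between the groups in that direction. Mcm6, a subunit of the replicative helicase, was at 5.15, 5.04 and 5.35 in the condition and 3.16 and 2.64 in primary cells. Mcm6 differed by 2.28 ± 0.32 (adjusted p = 0.000251). Gins1, another part of that helicase, was at 0.92, 0.46 and 0.56 in the condition and -0.99 and -1.65 in primary cells. Gins1 differed by 1.97 ± 0.22 (adjusted p = 3.73e-05). The flap nuclease Fen1 (1.53 ± 0.29), the polymerase subunit Pola1 (1.52 ± 0.32) and the licensing factor Cdt1 (1.49 ± 0.31) were higher. Of 34 mitosis genes, 10 were higher, with a median of 1.34 (1.5 within slide 4), and 33 did not overlap, so the shift covered nearly the whole list while most members did not pass alone. Bub1, a spindle checkpoint kinase, was at 0.39, 0.34 and 0.039 in the condition and -1.64 and -1.9 in primary cells. Bub1 differed by 2.03 ± 0.47 (adjusted p = 0.00836), with an adjusted p of 0.0515 without primary array 4. Pttg1, the securin that holds sister chromatids together, showed 1.14 ± 0.23. The mitosis count was 4 without condition array 1, 6 without condition array 3, 1 without primary array 4, and 26 with normexp correction. Over all genes, 6748 of 25977 (26.0%) did not overlap in this direction.

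Cell cycle inhibitors and p53 targets included 9 higher and 2 lower genes of 29. Mdm2, the ubiquitin ligase of p53 and its target, was at 6.09, 6.11 and 4.89 in the condition and 2.9 and 4.27 in primary cells. Mdm2 differed by 2.11 ± 0.39 (adjusted p = 0.00189), and the p53 gene Trp53 was at -0.79, -0.78 and -0.93 in the condition and -2.51 and -2.38 in primary cells. Trp53 differed by 1.61 ± 0.3 (adjusted p = 0.00211). The pro-apoptotic target Bbc3 (2.01 ± 0.38) and the target Phlda3 (1.61 ± 0.33) were higher. Primary array 4 lay nearer to the condition at Mdm2, Bbc3 and Phlda3, and the higher count was 4 without primary array 3 and 14 without primary array 4. The lower count was 0 without condition array 2 and 1 without condition array 3.

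Of 40 interferon-stimulated genes, 21 were lower and 5 higher, with a median of -1.38 (-0.88 within slide 4). Rsad2, which encodes the antiviral protein viperin, was at -9.6, -9.56 and -7.33 in the condition and -2.07 and -1.77 in primary cells. Rsad2 differed by -6.91 ± 0.96 (adjusted p = 0.000239). Ifi44 was at -7.69, -8.47 and -6.35 in the condition and -0.76 and -1.67 in primary cells. Ifi44 differed by -6.29 ± 0.71 (adjusted p = 3.95e-05), and Oas1a, an antiviral RNA sensor, at -3.85, -2.18 and -1.65 in the condition and 3.53 and 2.43 in primary cells. Oas1a differed by -5.54 ± 0.71 (adjusted p = 0.000126). These 3 genes were higher on both primary arrays than on any condition array. Oasl2 (-4.62 ± 0.8), Ifit1 (-3.08 ± 0.67), the transcription factor Irf7 (-3.5 ± 0.55) and Ifi27 (-2.41 ± 0.36) were lower. The count of lower genes was 10 without primary array 3 and 16 with normexp correction. The higher members were Cxcl10, the inducible GTPases Irgm1 and Gbp2, the transcription factor Irf1 and Ifit2. Irgm1 was at 3.0, 3.04 and 2.11 in the condition and 0.74 and 0.71 in primary cells. Irgm1 differed by 1.99 ± 0.36 (adjusted p = 0.00177). Cxcl10, a T cell chemokine, was at 0.32, 1.1 and -0.52 in the condition and -3.37 and -2.55 in primary cells. Cxcl10 differed by 3.26 ± 0.55 (adjusted p = 0.00107). The higher count was 3 without primary array 4, where Irf1 (0.0889) and Gbp2 (0.105) had adjusted p above 0.05, and Ifit2 had 0.321 without primary array 3 and 0.0712 without condition array 1.

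Interferon response elements with the core GAAA, any 2 bases, then GAAA again were searched on both strands. They were present for 10 of 16 lower interferon genes with a promoter in the table, against 3.82% of all genes tested. They were also present for 3 of 5 interferon genes that were higher and for 5 of 7 that did not pass. The elements of Isg15 (chr4:156200842-156200941, minus strand) and Ifit1 (chr19:34640740-34640839, plus strand) are shown in capitals as examples of that element. Isg15, a ubiquitin-like modifier, was at -2.04, -0.9 and 0.18 in the condition and 1.18 and 1.63 in primary cells, and its adjusted p of 0.0263 ranged from 0.0103 to 0.127 as single arrays were left out.
Isg15: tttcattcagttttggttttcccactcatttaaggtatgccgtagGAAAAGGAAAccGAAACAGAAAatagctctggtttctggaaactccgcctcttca
Ifit1: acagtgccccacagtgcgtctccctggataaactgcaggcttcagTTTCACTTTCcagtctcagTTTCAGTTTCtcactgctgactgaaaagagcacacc

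Of 14 class II genes, 3 (21.4%, against 7.61% of all genes) were lower and none higher (1 higher without either primary array): H2-Ab1, the beta chain of an antigen-presenting molecule, at -8.12, -6.55 and -5.83 in the condition and -2.08 and -2.67 in primary cells, Ifi30 (-3.86 ± 0.75) and H2-DMa (-2.38 ± 0.63). H2-Ab1 had an adjusted p of 0.0771 without primary array 3, and H2-DMa of 0.0613 without condition array 1 and 0.218 without primary array 4. Of 20 class I processing genes, 1 was higher, the immunoproteasome subunit Psmb10 at 4.05, 3.98 and 4.15 in the condition and 2.4 and 1.75 in primary cells, and 2 were lower (0 to 7 lower, and up to 2 higher, as single arrays were left out). These were 5% higher and 10% lower, against 12% and 7.61% of all genes.

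Chemokines and cytokines were shifted toward the condition, with 11 of 34 higher and 3 lower and a median of 1.2 (0.68 with genes not above background at their bounds, and 1.54 within slide 4). The monocyte chemokine Ccl2 was at 7.71, 7.86 and 7.84 in the condition and -0.95 and 1.77 in primary cells. Ccl2 differed by 7.39 ± 0.68 (adjusted p = 7.18e-06). Ccl7 was given above, and its relative Ccl8 was at least 17.9-fold higher. The neutrophil chemokines went the same way. Cxcl1 was at 4.38, 5.36 and 3.41 in the condition and 0.56 and 0.54 in primary cells. Cxcl1 differed by 3.83 ± 0.88 (adjusted p = 0.00765). Cxcl5 was at 5.07, 5.22 and 5.91 in the condition and -0.95 and 0.27 in primary cells. Cxcl5 differed by 5.75 ± 0.91 (adjusted p = 0.000659), and Cxcl3 at -0.41, 0.83 and -0.054 in the condition and -7.74 and -6.59 in primary cells. Cxcl3 differed by 7.28 ± 0.53 (adjusted p = 8.69e-07). The colony-stimulating factor Csf2 (5.14 ± 0.85) and Lif, a cytokine of the interleukin 6 family (2.28 ± 0.5), were higher. In each of these genes all condition arrays were above both primary arrays, and Ccl2 and Cxcl5 were also high in undifferentiated cells, with means of 6.96 and 5.07, while Ccl7 (1.28) lay between the groups. The lower members were the mucosal chemokine Ccl28 (-4.41 ± 1.0), Tnf (-3.04 ± 0.92) and Ccl17 (-1.66 ± 0.54), and none of these passed without primary array 3 (adjusted p = 0.12, 0.257 and 0.312). Tnf also did not pass without condition array 1 (0.101) or 2 (0.0941), and Ccl17 did not without any 1 of the condition arrays. With normexp correction Ccl17 turned to 0.025, and without condition array 2 the lower count was 1.

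**Figure D5:**
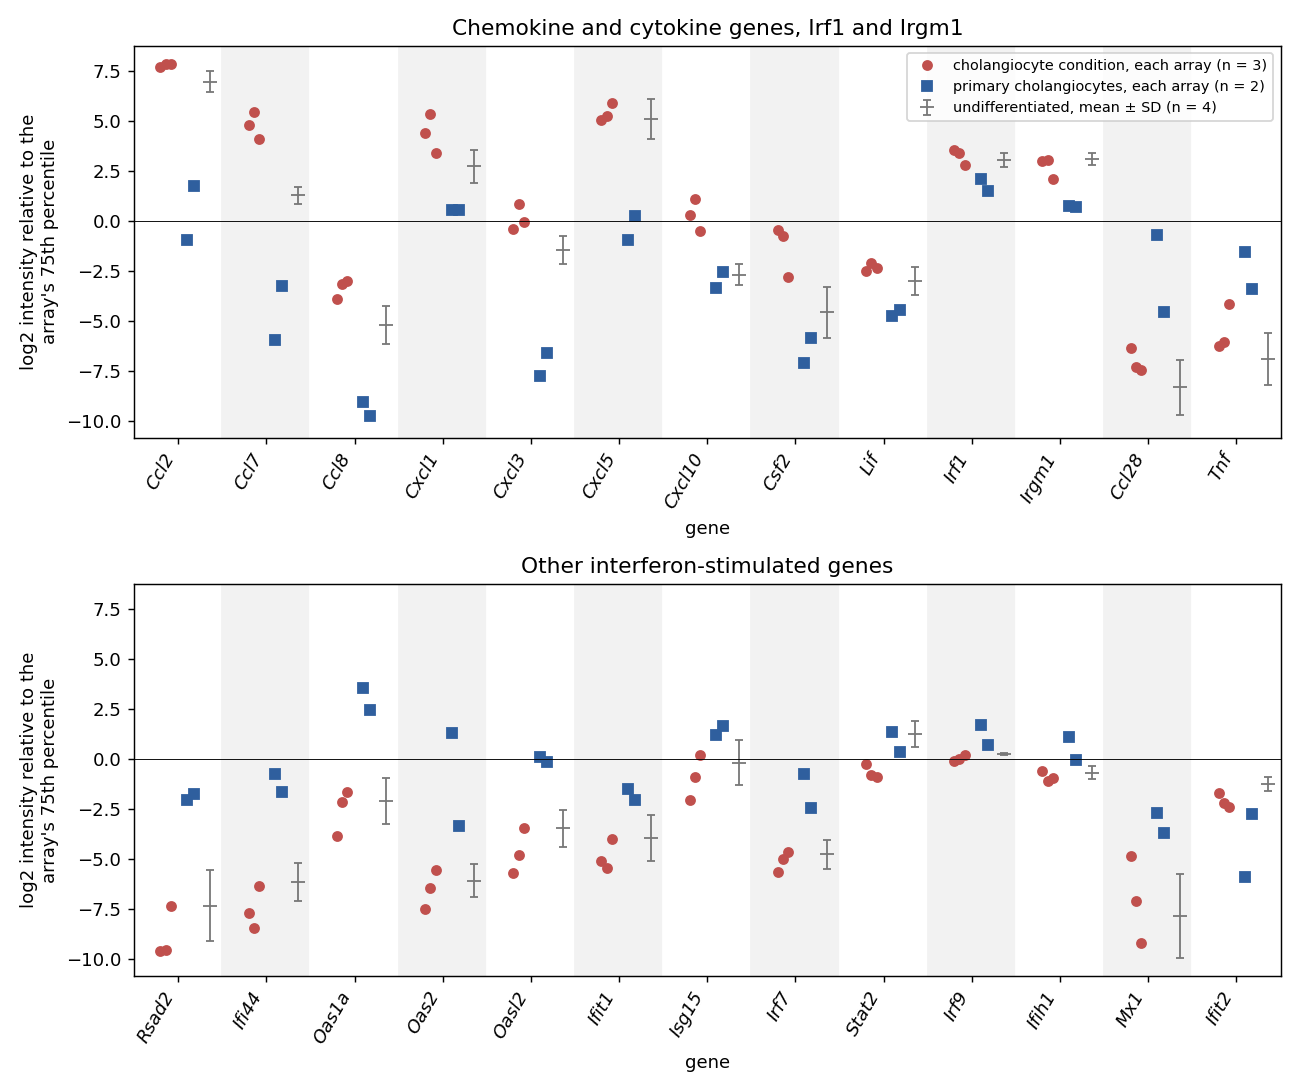
Log2 relative intensity (vertical axis) of chemokine and cytokine genes with Irf1 and Irgm1 (upper panel) and of other interferon-stimulated genes (lower panel), with a point for each array of the cholangiocyte condition (n = 3) and of primary cholangiocytes (n = 2), and the mean ± SD of undifferentiated cells (n = 4). Ccl2, Ccl7, Ccl8 and the Cxcl genes lie higher in the condition, and Rsad2, Ifi44, Oas1a, Oasl2 and Irf7 lie higher on both primary arrays.

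Of 43 matrix genes, 10 were higher and 4 lower, with a median of -0.11. Sparc, a matricellular protein, was at 7.07, 5.88 and 7.23 in the condition and 1.39 and 0.39 in primary cells. Sparc differed by 5.84 ± 0.51 (adjusted p = 4.27e-06). Fibronectin (Fn1) was at 4.98, 5.14 and 5.58 in the condition and 2.44 and 2.85 in primary cells. Fn1 differed by 2.59 ± 0.25 (adjusted p = 1e-05), and the basement membrane linker nidogen (Nid1) at 3.22, 3.81 and 2.9 in the condition and -1.75 and -0.19 in primary cells. Nid1 differed by 4.28 ± 0.64 (adjusted p = 0.000386). The collagen gene Col12a1 (4.97 ± 0.68), Tgfbi (4.7 ± 0.89) and the crosslinking enzyme Loxl2 (2.5 ± 0.34) were higher, and the epithelial laminin chain Lama3 (-3.09 ± 0.71) was lower, with an adjusted p of 0.116 without primary array 3. Among 28 metalloproteinases and inhibitors, 6 were higher and 6 lower (3 higher without primary array 3). The collagenase Mmp13 was at -1.18, 2.59 and 2.84 in the condition and -6.78 and -7.85 in primary cells, a difference of 8.73 ± 1.28 (adjusted p = 0.000344), so the largest member toward the condition stood opposite to Mmp7. Mmp14 (1.99 ± 0.41) and the inhibitor Timp1 (2.37 ± 0.34) were higher, while Mmp15 (-3.21 ± 0.68) and Mmp23 (-3.75 ± 0.69) were lower. Of 18 integrin genes 2 (11.1%, against 12% of all genes) were higher, including Itga1 (3.14 ± 0.51), and none lower. Without condition array 1 or 3 the higher count was 1, and without condition array 3 the lower count was 1.

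Growth factor, Notch, Wnt and YAP lists held genes of both directions. The Wnt list had 11.8% higher and 23.5% lower, against 12% and 7.61% of all genes. In the same order the growth factor list had 23.1% and 10.3%, the Notch list 22.2% and 14.8%, and the YAP list 23.3% and 13.3%. Of 39 growth factor genes, 9 were higher and 4 lower (median 0.31). The ligands Vegfc (3.46 ± 0.51), Pdgfc (2.75 ± 0.33) and Nrg1 (2.98 ± 0.58) and the binding protein Igfbp4 (5.29 ± 0.67) were higher, and Mst1r, the receptor of macrophage stimulating protein, was lower (-6.51 ± 1.06). Of 27 Notch genes, 6 were higher and 4 lower (2 lower without primary array 3). The ligand Jag1 was at 1.43, 2.28 and 1.85 in the condition and -0.62 and -0.24 in primary cells, a difference of 2.28 ± 0.42 (adjusted p = 0.00187), the feedback gene Nrarp at -3.62, -2.95 and -3.5 in the condition and -6.83 and -5.92 in primary cells. Nrarp differed by 3.02 ± 0.37 (adjusted p = 7.69e-05), and the receptor Notch2 (1.69 ± 0.21) was higher, while the ligand Dll1 (-2.62 ± 0.48) was lower. Of 34 Wnt genes, 4 were higher and 8 lower (4 lower without condition array 1 and 2 without primary array 4). The higher members were the ligand Wnt10a, at 4.95, 5.93 and 5.86 in the condition and 0.22 and -0.8 in primary cells, a difference of 5.87 ± 0.81 (adjusted p = 0.000213), the stem cell receptor Lgr5, at -1.28, -1.35 and -1.94 in the condition and -9.17 and -9.79 in primary cells (at least 64.6-fold), its ligand Rspo3 and the target gene Axin2 (5.08 ± 0.94). Lgr5 had a mean of -6.36 in undifferentiated cells, between the groups. Lower members of the Wnt list included other Wnt ligands, with differences from -3.16 to -3.08, and the receptor Fzd1 (-1.97 ± 0.36). Of 30 YAP target and partner genes, 7 were higher and 4 lower (2 lower without condition array 3 and 1 without primary array 4).

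Of 32 genes of glycolysis and the hypoxia response, 14 were lower and 1 higher, with a median of -0.82 (-0.75 within slide 4). The lactate exporter Slc16a3 was at -4.39, -4.57 and -2.22 in the condition and 3.44 and 2.61 in primary cells. Slc16a3 differed by -6.75 ± 0.75 (adjusted p = 3.66e-05). The glucose carrier Slc2a3 was at least 26.7-fold lower, the phosphofructokinase Pfkp was at -2.62, -1.77 and -1.8 in the condition and 1.58 and 1.27 in primary cells. Pfkp differed by -3.49 ± 0.51 (adjusted p = 0.000327), and Pdk1, a brake on pyruvate oxidation, showed -2.77 ± 0.5. Adrenomedullin (Adm, -3.52 ± 0.54) and Car9, which are known to respond to low oxygen, were lower too, and the muscle type phosphofructokinase Pfkm (1.16 ± 0.23) was higher. Without primary array 3 the count was 8 lower and 2 higher. Of 24 cholesterol synthesis genes, 7 were lower and none higher, with a median of -1.35 (-0.98 within slide 4), and 17 did not overlap in that direction, as did 15.9% of all genes. Lanosterol synthase (Lss) was at -1.16, -1.47 and -1.4 in the condition and 1.61 and 0.88 in primary cells. Lss differed by -2.59 ± 0.61 (adjusted p = 0.00922). None of the 7 passed without primary array 3, where Lss had an adjusted p of 0.0819, 4 passed without condition array 1 and 3 without condition array 2.

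Of 36 glutathione and oxidative stress genes, 6 were higher and 5 lower (3 higher without condition array 2 and 3 lower without primary array 3). The gastrointestinal glutathione peroxidase Gpx2 was at -4.18, -4.42 and -4.27 in the condition and 4.42 and 3.1 in primary cells. Gpx2 differed by -8.05 ± 0.55 (adjusted p = 5.34e-07), and the secreted dismutase Sod3 showed -7.84 ± 1.63. Aldh1a1, a retinaldehyde dehydrogenase found in this list and among retinoid genes, was at 5.01, 4.28 and 5.36 in the condition and 2.12 and 2.33 in primary cells. Aldh1a1 differed by 2.66 ± 0.39 (adjusted p = 0.000327). Of 24 retinoid genes, 4 (16.7%) were higher, with Rbp4 first, and 1 (4.17%) lower, the carrier Rbp7 at -8.5, -6.96 and -7.78 in the condition and 0.49 and -1.46 in primary cells. Rbp7 differed by -7.26 ± 0.73 (adjusted p = 1.39e-05). These counts were 2 higher without condition array 2 or primary array 4, and 2 or 3 lower without primary array 3 or 4. Of 23 immediate early and heat shock genes, 2 (8.7%) were higher and 1 (4.35%) lower, including Fosl1 (3.97 ± 0.52) and Nr4a2 (-2.37 ± 0.41), with 1 to 4 higher and up to 3 lower as single arrays were left out.

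Of 27 liver transcription factor genes, 8 were higher and 3 lower (5 higher without condition array 1 and 4 without primary array 4). Hnf4a, the central hepatocyte regulator, was at 5.28, 5.23 and 5.19 in the condition and 3.94 and 1.42 in primary cells. Hnf4a differed by 2.55 ± 0.58 (adjusted p = 0.00705), with an adjusted p of 0.0964 without primary array 4. Foxl1, the gene whose promoter drives Cre in these mice, was at -4.21, 0.66 and 2.51 in the condition and -7.85 and -9.93 in primary cells and so at least 146-fold higher in the condition (adjusted p = 0.00297), with condition array 1 the lowest of the 3. Of 28 fetal liver and progenitor genes, 8 were higher and 5 lower. The RNA-binding protein Igf2bp1 was at 0.8, 0.74 and -0.75 in the condition and -9.12 and -6.3 in primary cells, a difference of 7.97 ± 0.64 (adjusted p = 2.02e-06), the chromatin protein Hmga2 showed 3.28 ± 0.62 and the imprinted gene Peg3 3.79 ± 0.63. The lower members included Ly6d, Kit, Epcam and St14, most of them surface proteins used to sort epithelial progenitors.

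Markers of other cells were set beside these results. Of 35 hepatocyte markers, 5 (14.3%, against 12% of all genes) were higher and none lower (3 higher without primary array 4): Apob, Hpx, Hnf4a, transferrin (Trf, 6.92 ± 0.59) and haptoglobin (Hp, 4.89 ± 1.46), of which Hp ranged in adjusted p from 0.00136 to 0.132 as single arrays were left out. Albumin (Alb), at -4.09, -7.95 and -9.31 in the condition and -4.93 and -9.64 in primary cells, was well above background on 1 array of each group. Whether they passed or not, 6 members were higher and 7 lower without overlap, against 26.0% and 15.9% of all genes. Apoc1 (-3.19 ± 2.25) and Cyp3a11 (-3.08 ± 1.78) were among those below both primary arrays on every condition array, and did not pass. The summed level of the hepatocyte list was 8.09 to 8.36 in the condition and 7.19 to 7.80 in primary cells. Of 31 leukocyte and Kupffer cell markers, 1 (3.23%) was higher and 3 (9.68%) lower (all genes 12% and 7.61%), with a summed level of 4.32 to 4.89 in the condition and 5.53 to 5.56 in primary cells. The macrophage protein Cd68, at -6.0, -5.79 and -6.32 in the condition and -1.81 and -1.69 in primary cells, and the endotoxin coreceptor Cd14, at 2.53, 3.16 and 2.5 in the condition and 4.69 and 4.59 in primary cells, were lower in the condition, while the Kupffer cell receptor Clec4f was not well above background on any of the 5 arrays and the pan-leukocyte Ptprc, at -4.66, -5.34 and -5.43 in the condition and -6.77 and -4.0 in primary cells, overlapped. Cybb was the higher member, at -2.47, -1.08 and -5.15 in the condition and -8.61 and -8.68 in primary cells (at least 24.9-fold). Of 24 endothelial markers, 4 (16.7%) were higher and 2 (8.33%) lower (1 lower without condition array 1 or 2), with a summed level of 3.30 to 3.86 against 2.97 to 2.98. Ptprb (5.32 ± 0.5) and Stab1 (at least 75.9-fold) were higher, Vwf (-4.16 ± 0.84) was lower, and Pecam1, at -4.74, -3.48 and -4.48 in the condition and -3.0 and -3.87 in primary cells, overlapped.

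Of 24 stellate cell and fibroblast markers, 2 (8.33%) were higher and 3 (12.5%) lower, against 12% and 7.61% of all genes (1 higher without primary array 3). Their summed level was 4.98 to 5.24 in the condition and 5.24 to 5.66 in primary cells. Vcam1 (4.11 ± 0.85) was higher and Pdpn (at least 388-fold) lower, and the stellate gene Lrat was not well above background on any of the 5 arrays. Of 12 mesothelial markers, 2 (16.7%) were higher and 2 (16.7%) lower (1 each without condition array 1 or primary array 3), with a summed level of 7.37 to 8.23 against 8.42 to 8.43. This list also holds the biliary keratin gene Krt19, at high signal in both groups, so its sum is not particular to mesothelial cells. Bnc1 (at least 40.6-fold) was higher and Slpi lower. None of 7 red blood cell markers passed. In bulk RNA, fewer cells of a type and less RNA per cell cannot be told apart, and the part of these cells in the results above was not tested.

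The same contrast in the hepatocyte lineage (differentiated in culture minus primary hepatocytes) served to ask at which of the 15 biliary genes the cholangiocyte pair stood apart. The difference of the 2 differences passed for 12 genes, all but Sox9, Cftr and Sctr. Krt19 is an example of how it arises: it was alike in the condition and in primary cholangiocytes, while it was at 4.5 ± 0.58 (SD, n = 4) in the hepatocyte condition and -7.01 ± 1.13 (SD, n = 4) in primary hepatocytes, which gave -11.97. Epcam was low in both groups of the hepatocyte lineage (-5.47 ± 1.84 and -6.76 ± 0.71, SD, n = 4 each), so its value of -10.55 was set mainly by the level in primary cholangiocytes. Mmp7 was at 1.39 ± 1.83 (SD, n = 4) in the hepatocyte condition, above the -4.6 ± 0.65 (SD, n = 3) of the cholangiocyte condition.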

How the data were processed

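RNA of 17 samples was hybridised to 1-colour Agilent mouse arrays. The authors' deposited scanner files hold processed spot intensity, background-subtracted by Agilent Feature Extraction (10.5.1.1 per the file headers, 9.53 per the submitters' processing notes) and not scaled between arrays. The authors' deposited table gives signed fold scores and a false discovery rate in percent for each comparison, with test and scaling not given in the sources used here.

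Control spots were left out, log2 intensity was taken relative to the 75th percentile of each array, and 32305 probes well above background on at least 2 arrays were kept. The brightest probe stood for each of 25977 genes, of which 5272 had several probes and 8 had probes called in opposite directions. Of 39429 probes, 26412 were named by RefSeq accession, 3854 by symbol, 735 by an older symbol and the rest by the files. Groups were compared with limma 3.58.1 (R 4.3.3, lmFit and eBayes) over 17 arrays, adjusted p under 0.05 by Benjamini-Hochberg, tested on simulated data with known changes. There, 16% of 50 changed genes passed at a log2 difference of 1. The share was 48% at 2, 54% at -2 and 82% at 4, with 50 genes each. Genes that did not pass may therefore still differ. The simulated noise was normal with 1 spread per gene in all groups, as the fit assumes, although the real primary arrays differed more. The simulation therefore cannot show how the fit does where the spread is unequal.

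Members and gene lists were chosen with earlier results of these data known. Named were 15 biliary genes; the 12 largest differences in each direction among genes that passed, were well above background on all 5 arrays and did not overlap; the 8 largest bounds in each direction; and, from each list, up to 4 members that passed in each direction and up to 2 that did not, by size. A few items are not reported here, and a further part was left out, with preference for genes whose call held when single arrays were left out. Other genes named were chosen after their values were seen. Alternatives were normexp background correction (offset 50), median and quantile scaling, other filters on dim probes, the mean of a gene's probes, a fit to 5 arrays, slide or replicate number as a block, leaving out single arrays, and the authors' table. Both groups carry only replicate number 3 in common, so pairing by number could not be checked.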

Additional observations from a re-analysis of the deposited data

Results flagged for a closer look

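For 12 of the 15 biliary genes, the difference of culture-differentiated from primary cells was not the same in the cholangiocyte lineage as in the hepatocyte lineage, by a limma contrast between the 2 differences (cholangiocyte pair minus hepatocyte pair, adjusted p under 0.05 over all genes tested). Of the negative values, those of Mmp7, at -18.32, Aqp5, at -14.28, and Krt7, at -13.45, were farthest from 0. Rbp4, at 14.24, and Aqp1, at 4.09, were the genes with a positive value. The keratin gene Krt19 had -11.97, Epcam -10.55, Prom1 -10.02, Muc1 -10.01 and Cldn4 -6.42. Smaller values were found for Spp1 (-5.88) and Itgb6 (-3.92). At Krt7 and Spp1 the hepatocyte pair had the larger difference. Krt7 differed by -2.02 in the cholangiocyte pair and by 11.43 in the hepatocyte pair. Spp1 was higher in the cultured cells of both pairs, by 4.26 and 10.14 in the same order. For Krt19, Aqp1, Prom1 and Itgb6 the cholangiocyte pair itself did not pass, and the hepatocyte pair is given beside it: Krt19 differed there by 11.51, Prom1 by 5.46, Itgb6 by 3.8 and Aqp1 by -4.22. Groups of 3 and 2 arrays were too small for a test of single outlying arrays.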

How the results depend on the processing

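Genes that passed numbered 5089, with 61.1% higher. With normexp background correction 5494 were higher and 75.2% of those that passed were higher. In the fit to 5 arrays 1070 passed (473 higher, 597 lower, 44.2% higher), a fit with fewer samples. By the authors' deposited comparison, 2147 genes passed (1055 higher, 1092 lower, 49.1% higher), and the cause was not tested. All other settings stayed within 1.5 times of these counts, from 3648 genes with median scaling to 5458 with the strictest filter on dim probes. Without single arrays, 3675 to 4486 passed, 2182 to 2651 higher and 1487 to 1849 lower, and the biliary genes whose difference of differences passed numbered 11 to 12.

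With the replicate number as a block, 4419 genes passed (2662 higher, 1757 lower). The groups share only number 3, so this replicate block says nothing of pairing. It ended 8 calls of the genes named, those of Ccl17, Cdh1, Cdh16, Cldn12, Hp, Isg15, Slc10a2 and Sox9. The way the genes were picked favours few lost calls among them, here and with slide as a block.

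Signs turned for differences of which Ccl17's alone had passed. Normexp gave 0.025 for Ccl17, 0.067 for Cftr and 0.28 for Sctr. Median scaling gave 0.031 for Krt8, and quantile scaling -0.11 for Alb and -0.22 for Krt18. With slide as a block, 4015 genes passed (2331 higher, 1684 lower), 13 of the 200 calls of genes named were lost and 8 counts within lists moved by over 1.5 times. It gave 0.91 for Cftr and -0.15 for Ptprc. The replicate block gave -2.94 for Alb, 0.15 for Aqp1, 0.074 for Cftr and -0.031 for Ptprc. With single arrays left out, differences ranged from -1.60 to 1.56 for Ahrr, -2.19 to 2.52 for Alb, -2.18 to 1.91 for Aqp1, -2.22 to 0.51 for Cftr, -0.62 to 0.37 for Itgb6, -0.21 to 0.17 for Krt8, -1.15 to 1.62 for Ptprc, -0.40 to 0.22 for Sctr and -8.09 to 2.57 for Tff1. Signal over background limits the genes given only as bounds.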

Other observations

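The authors' deposited table shared its direction with the limma fit for all 1990 genes that passed in both. Both rest on the same arrays, so this is no independent check. The signed fold of the condition over primary cells in that table was -5372.85 for Mmp7, -2103.9 for Aqp5, -1025.12 for Muc1, -685.07 for Epcam, -172.21 for Cldn4, -4.92 for Krt7 and 20.41 for Spp1. Sox9, higher in the limma fit, had a fold of 5 there but did not pass, at a false discovery rate of 11.95 percent.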
